A study of Mus musculus with 24 samples.

Results

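The 6 genes described here encode histone demethylases of the Kdm2 and Kdm4 families, grouped for their known action on lysine 36 of histone H3 (H3K36): Kdm2a, Kdm2b, Kdm4a, Kdm4b, Kdm4c and Kdm4d. They were taken by gene symbol from both deposited tables, as 6 of the 55421 genes that each table listed, and 5 of the 6 had enough reads to be tested. Messenger RNA was sequenced from whole embryos and from yolk sacs of C57BL/6 mice on embryonic day 9.5, in 24 libraries. The mice carried 1 of 2 alleles of Setd2, a null allele or a catalytic dead allele (CD), as homozygotes (HO), heterozygotes (HE) or wild type (WT) animals of the same line. Each combination of tissue, line and genotype had 2 libraries. The sources used here give neither the changed part of the gene in either allele nor the number of founders of a line, and they do not say whether replicates came from separate litters, so p-values measure the spread between these libraries. In bulk RNA, fewer cells that express a gene and less RNA per cell cannot be told apart.

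Setd2 is the methyltransferase that places trimethylation on H3K36 along transcribed genes, and the demethylases remove methyl groups from that lysine. Kdm2a and Kdm2b remove the lower methylation states and carry a CxxC zinc finger that binds unmethylated CpG dinucleotides, and Kdm2b brings the Polycomb complex PRC1.1 to CpG islands. Kdm4a, Kdm4b and Kdm4c remove the higher states from H3K36 and also from lysine 9 of histone H3 (H3K9), while Kdm4d acts mainly on H3K9 and is best known from testis. Setd2 and these enzymes act on H3K36 in opposite directions, though Kdm2a and Kdm2b act on its lower states and Kdm4d mainly on H3K9. Their transcripts were therefore read in the Setd2 mutants across both tissues. Neither protein nor H3K36 methylation was measured.

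A count for a gene sums the transcripts from all of its starts. RefSeq promoter windows (build GRCm38.p6, 250 bases before to 50 after a start) were at hand for 4 of the 6 genes, with 8 windows in all, and those of Kdm2b and Kdm4c are shown because these genes differed most between tissues and have starts of unlike composition. CpG dinucleotides are in capitals, and each window reads 5′ to 3′ on the gene's own strand. The outer Kdm2b window, chr5:122989050-122989349 on the minus strand, belongs to a start 724 bases into the gene and holds 28 CpG. An inner Kdm2b window, chr5:122900301-122900600, belongs to a start 89473 bases into the gene and holds 49 CpG. As many or more were found in 1.02% of the 32851 windows of all genes, whose median was 7. The first Kdm4c window, chr4:74242247-74242546 on the plus strand, holds 0 CpG, and a second, chr4:74251629-74251928, belongs to a start 9382 bases into the gene and holds 28.
Kdm2b outer start: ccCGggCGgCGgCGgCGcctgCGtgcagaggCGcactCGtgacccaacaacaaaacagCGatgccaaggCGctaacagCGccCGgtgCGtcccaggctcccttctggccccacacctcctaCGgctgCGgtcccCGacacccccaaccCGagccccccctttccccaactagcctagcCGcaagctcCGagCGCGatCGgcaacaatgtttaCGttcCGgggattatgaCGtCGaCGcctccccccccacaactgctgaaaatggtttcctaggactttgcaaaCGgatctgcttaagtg
Kdm2b inner start: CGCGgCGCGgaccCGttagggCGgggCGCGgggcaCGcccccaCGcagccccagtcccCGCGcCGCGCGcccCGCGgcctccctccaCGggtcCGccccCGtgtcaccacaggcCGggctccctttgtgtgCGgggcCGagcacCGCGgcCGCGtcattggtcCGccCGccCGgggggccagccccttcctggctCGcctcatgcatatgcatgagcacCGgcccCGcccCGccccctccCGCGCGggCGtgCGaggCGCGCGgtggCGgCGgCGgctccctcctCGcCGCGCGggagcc
Kdm4c first start: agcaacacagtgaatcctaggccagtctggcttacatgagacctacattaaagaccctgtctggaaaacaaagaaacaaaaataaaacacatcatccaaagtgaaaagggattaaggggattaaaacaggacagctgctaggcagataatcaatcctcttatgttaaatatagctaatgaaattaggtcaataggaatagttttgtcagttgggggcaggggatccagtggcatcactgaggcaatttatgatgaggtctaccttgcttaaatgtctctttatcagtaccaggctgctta
Kdm4c second start: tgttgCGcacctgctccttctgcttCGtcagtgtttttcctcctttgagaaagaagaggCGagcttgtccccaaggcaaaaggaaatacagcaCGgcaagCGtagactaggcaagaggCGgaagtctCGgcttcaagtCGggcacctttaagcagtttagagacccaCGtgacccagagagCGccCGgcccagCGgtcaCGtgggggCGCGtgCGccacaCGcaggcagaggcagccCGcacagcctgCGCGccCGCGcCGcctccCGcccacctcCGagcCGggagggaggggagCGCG
The second Kdm4c window also holds CACGTG, a palindrome read alike on both strands and known as an E-box, in 2 places, as do 7.15% of all windows at least once. None of the other 7 windows holds it. The deposited values are per gene, so the reads of a gene were not divided among its starts.

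All 6 genes are annotated as protein coding, and positions are in mm10. Kdm2a (ENSMUSG00000054611) lies on chr19:4314419-4398285 and Kdm2b (ENSMUSG00000029475) on chr5:122870665-122989823. Kdm4a (ENSMUSG00000033326) lies on chr4:118136957-118180043, Kdm4b (ENSMUSG00000024201) on chr17:56326062-56402870, Kdm4c (ENSMUSG00000028397) on chr4:74242497-74405860 and Kdm4d (ENSMUSG00000053914) on chr9:14462548-14500482. The counts of Kdm2b are the least certain of the 5 tested. Its span overlaps that of Rnf34 on the other strand by 627 bases, 11.3% of the 50-base words of its longest transcript occur in Rnf34 and 23.8% in any of 3 other genes, and no source used here says whether counting took strand into account. Rnf34 itself had 756 to 1628 counts per library, and the antisense gene A930024E05Rik, which overlaps Kdm2b by 470 bases, had 24 to 292. Kdm4c is overlapped by the antisense gene A230083N12Rik, which had 0 to 11 counts per library. No such shared word was found for Kdm2a, Kdm4a, Kdm4b or Kdm4c.

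The depth of the libraries was 16400137 to 22113787 counted reads in yolk sacs, and 23414255 to 27674831 in embryos. Setd2 had 93.3 and 104 CPM (counts scaled to the library total, adjusted by the TMM method) in null HO embryos and 169 and 157 in null HE embryos, against 232 and 229 in null WT embryos. In CD embryos it had 218 and 213 CPM in HO, against 224 and 255 in WT. In null yolk sacs, HO had 75.6 and 78.9 CPM and HE 114 and 120, but the libraries labelled WT had only 102 and 114, against 178 and 190 in CD WT yolk sacs, so that their level went against the label and did not set them above HE. Ddx3y and Xist showed that both CD HO embryos were female and both CD WT embryos male. In yolk sacs both CD HO libraries were male and both CD WT libraries female. For HO over WT in the CD line, genotype and sex therefore cannot be told apart in either tissue. The CD minus the null effect carries the same limit. Both null WT embryos were female and both null HE embryos male, and null HO held 1 library of each sex in each tissue. CD HE yolk sac replicate 2 had both Ddx3y (88.3 CPM) and Xist (897 CPM), unlike any other library. Of the marker lists, 12 visceral endoderm genes summed to 27836 to 46982 CPM in yolk sacs and to 18.4 to 785.3 in embryos, where CD WT replicate 2 held the 785.3, with 0 of the 12 genes at 0 counts, and the next highest library held 113. Neural markers, 10 genes, summed to 195.5 to 326 CPM in HO embryos of both lines, against 372 to 483 CPM in WT embryos of both lines, and 10 primitive erythroid markers to 98.5 to 1678 CPM in HO embryos, against 1225 to 3192 CPM in WT embryos. The part of these differences in the results below was not tested.

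By FPKM (reads scaled to the deposited gene length and library total), Kdm4a was on average the highest of the 6 genes in WT libraries of both tissues. The deposited length exceeds that of the longest transcript unevenly: 14446 against 8578 bases for Kdm2a, 10869 against 5180 for Kdm2b and 5782 against 4663 for Kdm4a. The order of the genes and their shares therefore depend on the length used. In the 4 yolk sac libraries labelled WT it made up 29.4% ± 2.51 (SD, n = 4) of the summed FPKM of the 6 genes. Kdm2a followed with 24.6% ± 1.09, Kdm4c with 21.1% ± 1.198, Kdm4b with 17.7% ± 0.927 and Kdm2b with 7.23% ± 0.413, and Kdm4d had no reads. In the 4 WT embryo libraries Kdm4a held 32.5% ± 2.10. Kdm2a followed with 22.7% ± 0.403 and Kdm4b with 22.5% ± 1.85, which did not differ beyond their spread. Kdm2b held 14.8% ± 0.958, Kdm4c 7.34% ± 0.573 and Kdm4d 0.101% ± 0.0405. In that order Kdm4c stood above Kdm4b and Kdm2b in the yolk sacs labelled WT, but below both in WT embryos. The summed FPKM of the 6 genes was 61.9 ± 0.851 (SD, n = 2) in null HO embryos, against 52.5 ± 2.19 in null WT embryos. It was 65.2 ± 1.36 in CD HO embryos, against 58.3 ± 4.43 in CD WT embryos. In yolk sacs the sum was 41.8 ± 0.555 in null HO, against 40.6 ± 1.91 in the null libraries labelled WT, and 41.97 ± 3.54 in CD HO, against 39.1 ± 0.435 in CD WT. In embryos the sum was higher in both HO libraries of each line than in both WT libraries of that line, while in yolk sacs it differed by less than the spread between libraries in the null line. In CD yolk sacs both HO libraries, at 39.5 and 44.5, lay above the highest WT library at 39.4, and the lower of them by little.

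**Figure D1:**
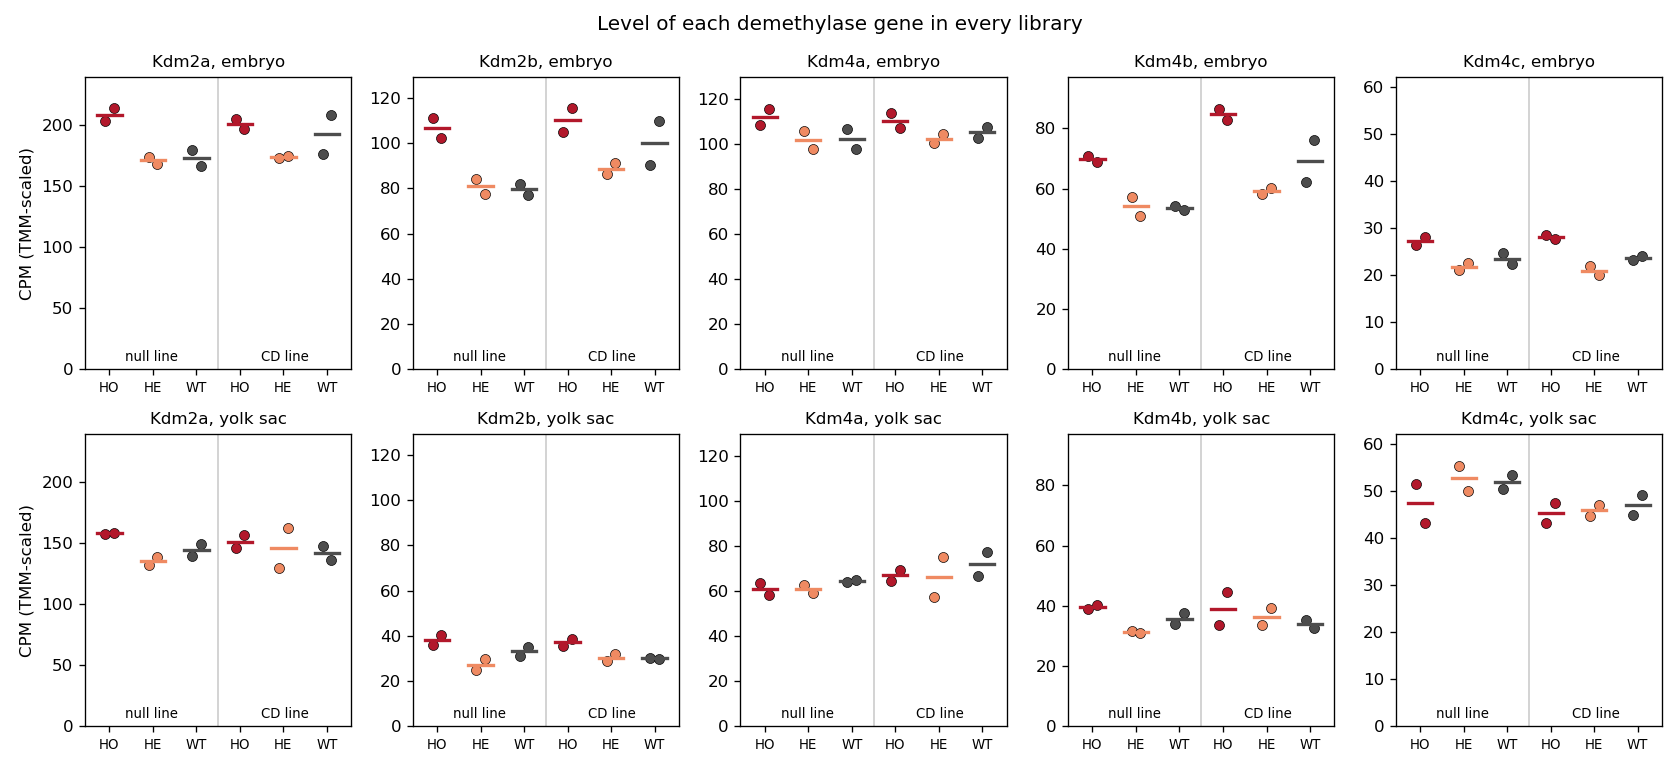
Level of Kdm2a, Kdm2b, Kdm4a, Kdm4b and Kdm4c in each of the 24 libraries, as TMM-scaled CPM (linear axis from 0), with embryos in the upper row and yolk sacs in the lower. Points are libraries and bars are means of 2 libraries, and within each line HO stands left of HE and WT. Kdm4c in embryos lies at 26.5 to 28.5 CPM in the 4 HO libraries and at 20.1 to 24.7 CPM in the other 8.

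In null embryos all 5 tested genes were higher in both HO libraries than in both WT libraries, and 3 of the 5 rose past the test (Kdm2b, Kdm4b and Kdm2a). Across all 19215 genes tested in this comparison 32.7% were called in either direction, and 16.2% of all genes were called as higher. The share of all genes with both HO libraries above both WT libraries was not computed, so the separation of the 5 genes has no background beside it. Kdm2b, the CpG-binding demethylase of PRC1.1, had 111 and 102 CPM in null HO embryos, against 82.2 and 77.0 CPM in null WT embryos. The lower HO library stood well above the higher WT library. The log2 fold change was 0.42 (SE 0.089, edgeR adjusted p = 0.00336). Kdm4b, a demethylase of H3K9 and H3K36, had 71.0 and 69.0 CPM in null HO, against 54.2 and 52.9 CPM in null WT. Within each genotype its libraries lay within a few CPM of each other. It rose by 0.39 on the log2 scale (SE 0.088, edgeR adjusted p = 0.00554). Kdm2a, the paralogue of Kdm2b, had 203 and 213 CPM in null HO, against 179 and 166 CPM in null WT. Its log2 fold change was 0.27 (SE 0.071, edgeR adjusted p = 0.0121), and the call was lost without null WT replicate 2 (0.21, adjusted p = 0.113) or without null HO replicate 2 (0.22, adjusted p = 0.0623).

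The other tested Kdm4 genes did not pass in null embryos. Kdm4c had 26.5 and 28.1 CPM in null HO, against 24.7 and 22.3 CPM in null WT, a log2 fold change of 0.22 (SE 0.089, edgeR adjusted p = 0.0824). Kdm4a, the member with the highest FPKM, had 109 and 116 CPM in null HO, against 107 and 98.0 CPM in null WT. Its HO and WT libraries all but touched. Its log2 fold change was 0.13 (SE 0.064, edgeR adjusted p = 0.134). The median change of the 5 genes was 0.27, beside 0.015 over all genes tested. The changes were moderate in size: a larger absolute change was fitted for 37.1% of all genes in the case of Kdm2b, for 40.4% in that of Kdm4b and for 53.2% in that of Kdm2a.

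In CD embryos 1 of the 5 genes rose past the test, Kdm4b, where 16.1% of all genes were called and 6.92% were called as higher. Kdm4b had 86.6 and 82.8 CPM in CD HO, against 62.3 and 76.3 CPM in CD WT. The WT libraries stood further apart than the HO libraries, yet both were lower. The log2 fold change was 0.29 (SE 0.087, edgeR adjusted p = 0.0400). Both HO libraries were female and both WT libraries male, so genotype and sex cannot be told apart here. A sex term in the fit can draw only on null HO and CD HE, the embryo groups that held both sexes. This call rests on single libraries: it was lost without CD WT replicate 1 (0.15, adjusted p = 0.257), without CD HO replicate 1 (0.25, adjusted p = 0.194) and without CD HO replicate 2 (0.31, adjusted p = 0.119), and also with a term for sex in the fit (0.33, adjusted p = 0.141). With CD WT replicate 2 left out instead, Kdm4b stood at 0.44 (adjusted p = 0.00313). Kdm4c had 28.5 and 27.6 CPM in CD HO, against 23.3 and 24.03 CPM in CD WT. Here replicates lay close and the genotypes were apart, but the log2 fold change of 0.24 (SE 0.090) missed the threshold (edgeR adjusted p = 0.0854).

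Kdm2a, Kdm2b and Kdm4a overlapped between genotypes in CD embryos. Kdm2b had 105 and 115 CPM in CD HO, against 90.5 and 110 CPM in CD WT, and a log2 fold change of 0.14 (SE 0.088, edgeR adjusted p = 0.319). CD WT replicate 2, the library with the high visceral endoderm markers, held the higher of the WT values for all 5 genes. Without that library Kdm2b passed (0.28, adjusted p = 0.0386), and without CD WT replicate 1 its change was 0.0050 (adjusted p = 0.979). Kdm2a had 205 and 197 CPM in CD HO, against 176 and 208 CPM in CD WT, a change of 0.063 (edgeR adjusted p = 0.595) that was -0.051 without CD WT replicate 1 and 0.18 without CD WT replicate 2 (adjusted p = 0.0642). Kdm4a had 114 and 107 CPM in CD HO, against 103 and 108 CPM in CD WT, a change of 0.070 (edgeR adjusted p = 0.5004). The median change of the 5 genes was 0.14 in CD embryos, beside 0.0024 over all genes tested.

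**Figure D2:**
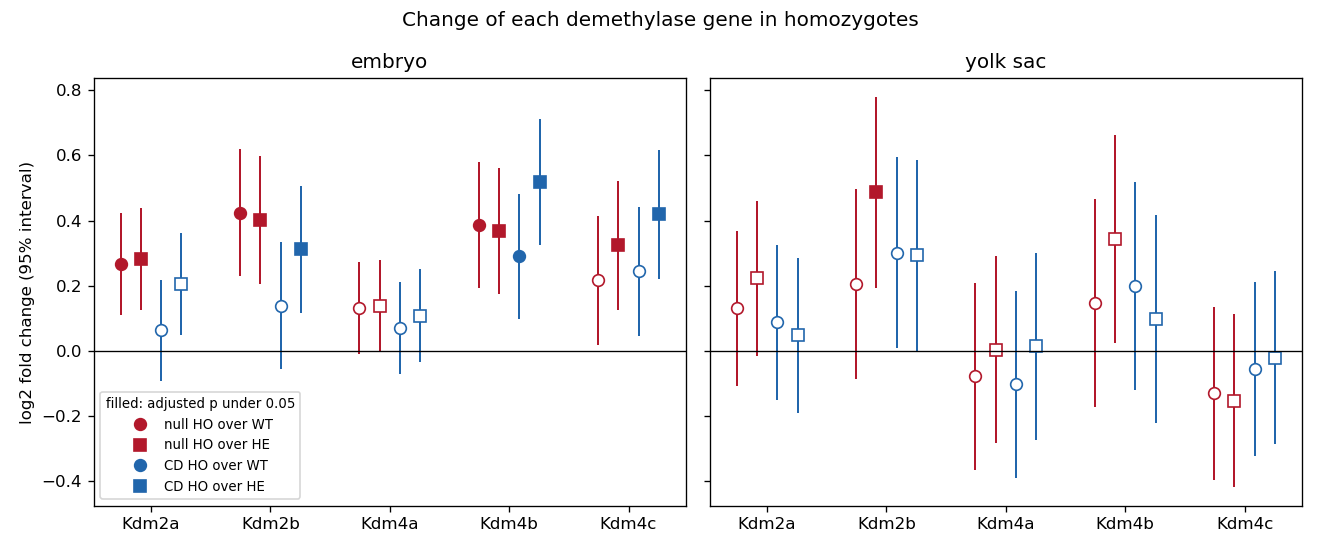
Fitted log2 fold change of each gene in HO over WT (circles) and in HO over HE (squares), in the null line (red) and the CD line (blue), for embryos on the left and yolk sacs on the right. Vertical lines are 95% intervals and filled symbols passed an adjusted p of 0.05. In embryos every fitted change lies above 0, while in yolk sacs those of Kdm4c lie below it. Of all genes tested in embryos, 50.3% to 51.6% had a change above 0 in these comparisons.

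The effects of the alleles on these genes did not differ past the test in embryos. For the CD effect minus the null effect, 0 of 5 genes were called by edgeR, as were 0.0208% of all genes, and 1 of the 5 (Kdm2b) had an unadjusted p under 0.05. Kdm2b gave a difference of -0.29 (95% interval -0.56 to -0.015, adjusted p = 0.351) and Kdm2a of -0.21 (-0.42 to 0.012, adjusted p = 0.392). Kdm4b differed by -0.096 (-0.36 to 0.17), Kdm4a by -0.062 (-0.26 to 0.13) and Kdm4c by 0.028 (-0.25 to 0.30), intervals that are wide beside the changes themselves. Without CD WT replicate 1 the differences of Kdm2a (-0.32) and Kdm2b (-0.42) passed, while without CD WT replicate 2 they were -0.076 (adjusted p = 0.825) and -0.13 (adjusted p = 0.779). The WT groups also stood apart in part. Kdm4b was 0.37 higher (SE 0.088, adjusted p = 0.108) and Kdm2b 0.33 higher (SE 0.089, adjusted p = 0.129) on the log2 scale in CD WT than in null WT embryos. In that comparison 0 of 5 genes and 0.0312% of all genes were called by edgeR, 3 of the 5 had an unadjusted p under 0.05, and DESeq2 called 2, Kdm4b and Kdm2b. The calls turned on single CD WT libraries: without replicate 1 edgeR called 3, Kdm4b (0.51), Kdm2b (0.46) and Kdm2a (0.27), and without replicate 2 they shrank to 0.22 for Kdm4b (adjusted p = 0.803), 0.18 for Kdm2b (adjusted p = 0.856) and 0.029 for Kdm2a (adjusted p = 0.996). Both CD WT embryos were male and both null WT embryos female, so line and sex cannot be told apart in this comparison.

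With both lines averaged, a comparison added after the values had been seen, 4 of the 5 genes rose in HO over WT embryos, where 39.7% of all genes were called and 19.7% as higher. Kdm4c was among them, with 0.23 (SE 0.063, edgeR adjusted p = 0.0122). Its 4 HO embryo libraries, at 26.5 to 28.5 CPM, lay above all 4 WT libraries at 22.3 to 24.7 and all 4 HE libraries at 20.1 to 22.5. The share of all genes that separate in this way was not computed. Kdm4b gave 0.34 (adjusted p = 0.00104), Kdm2b 0.28 (adjusted p = 0.00369) and Kdm2a 0.17 (adjusted p = 0.0194). Kdm4a, at 0.10 (SE 0.045), did not pass (adjusted p = 0.0936).

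Heterozygous embryos gave a second set of libraries to set homozygotes against. In the null line 4 of 5 genes rose in HO over HE embryos (30.3% of all genes were called, 15.2% as higher), namely Kdm2b by 0.40, Kdm4b by 0.37, Kdm4c by 0.32 (edgeR adjusted p = 0.0173) and Kdm2a by 0.28. In the CD line 3 of 5 rose (22.1% of all genes called, 10.2% as higher), namely Kdm4b by 0.52 (adjusted p = 0.00170), Kdm4c by 0.42 (adjusted p = 0.00645) and Kdm2b by 0.31 (adjusted p = 0.0250). In CD HE embryos Kdm4b had 58.2 and 60.1 CPM and Kdm2a 173 and 175 CPM, in each case below both CD WT libraries. These comparisons share the HO libraries with those against WT. Kdm4a did not pass in either line. Single libraries carried several of these calls. In the null line 0 of 5 were called without HE replicate 2, where Kdm2b stood at 0.34 (adjusted p = 0.0618), 2 without HO replicate 2, and 3 without HE replicate 1, where Kdm4c was lost. In the CD line Kdm4b was called with any 1 of the 4 libraries left out, Kdm4c was lost without HE replicate 2 (0.36, adjusted p = 0.0735), and Kdm2b was lost when any library other than HO replicate 1 was left out.

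Heterozygotes themselves gave no call among the 5 genes when set against WT. The share of all genes called was 0.0104% in null embryos, 0.0156% in CD embryos and 0% in the yolk sacs of both lines. In null embryos the changes lay between -0.11 and 0.023, with 0 of 5 at an unadjusted p under 0.05. In CD embryos all 5 were negative, between -0.23 and -0.038, where 49.4% of all genes had a positive change. Of the 5, 1 (Kdm4b) had an unadjusted p under 0.05 (adjusted p = 0.510). Without CD WT replicate 1 edgeR called Kdm4b (-0.37, adjusted p = 0.0205) and Kdm2a (-0.26, adjusted p = 0.0380) there, while without CD WT replicate 2 the changes were -0.075 and -0.021 (adjusted p = 0.9997 for each). In yolk sacs the changes lay between -0.28 and 0.023 in the null line and between -0.12 and 0.10 in the CD line, with 0 of 5 at an unadjusted p under 0.05 in each.

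In yolk sacs 0 of the 5 genes were called by edgeR in HO over WT in either line. Replicates spread more widely there, with a biological coefficient of variation common to all genes of 0.165 in yolk sacs and 0.087 in embryos. In the null line, where 6.27% of all genes were called, the changes against the libraries labelled WT lay between -0.13 and 0.21, and 0 of 5 had an unadjusted p under 0.05. In the CD line, where 3.15% were called, they lay between -0.10 and 0.30, and 1 of 5 had an unadjusted p under 0.05, Kdm2b. DESeq2 called none of the 5 in either line.

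Kdm2b was the gene whose yolk sac libraries separated best. It had 36.03 and 40.5 CPM in null HO and 35.7 and 38.5 CPM in CD HO. The null libraries labelled WT had 31.3 and 35.02 CPM and the CD WT libraries 30.2 and 30.0 CPM. The 4 HO libraries thus lay above the 4 labelled WT, and above the 4 HE libraries, which ran from 24.8 to 31.8. How common such a separation was among all yolk sac genes was not computed. The neural and visceral endoderm marker sums separated HO from the libraries labelled WT, but not from all HE libraries. The sums of the primitive erythroid, cardiac, trophoblast and decidua, and leukocyte lists overlapped between HO and those labelled WT. In a library, 3 to 7 of the 10 neural markers were at 0 counts. Their sums were 42.4 to 54.9 CPM in the 4 HO yolk sacs, against 30.8 to 41.2 CPM in the 4 labelled WT. In the 4 HE yolk sacs the neural sums ran from 32.7 to 56.6 CPM, the highest in CD HE replicate 2. The 12 visceral endoderm markers, none at 0, summed to 27836 to 37057 CPM in HO, against 39464 to 43538 CPM in those labelled WT. In HE they ran from 35278 to 46982 CPM, where CD HE replicate 2 held the lowest sum, inside the range of HO. The part of these markers in the Kdm2b difference was not tested. The log2 fold change was 0.21 (SE 0.13, edgeR adjusted p = 0.401) in the null line and 0.30 (SE 0.13, edgeR adjusted p = 0.231) in the CD line. With the lines averaged it was 0.25 (SE 0.094, adjusted p = 0.0849), a comparison in which 17% of all genes and 0 of the 5 were called. Against HE, whose Setd2 level was no lower than in the libraries labelled WT, null HO yolk sacs passed for Kdm2b (0.49, SE 0.13, adjusted p = 0.0436), where 8.19% of all genes were called, a call lost when any 1 of the 4 libraries was left out (0.36 to 0.62, adjusted p = 0.0694 to 0.269). CD HO against HE gave 0 of 5, with 3.86% of all genes called and 1 of 5 at an unadjusted p under 0.05, and gave 0 of 5 also without CD HE replicate 2. Between the lines, the CD effect minus the null effect in yolk sacs called 0 of 5 (0.0282% of all genes), with differences between -0.043 and 0.095. CD WT yolk sacs against the null libraries labelled WT called 0 of 5 (0.0451% of all genes), with differences between -0.14 and 0.16, and edgeR gave 0 of 5 an unadjusted p under 0.05 in both.

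The remaining genes moved little in yolk sacs. Kdm4b had 39.1 and 40.2 CPM in null HO, against 34.03 and 37.5 CPM in the null libraries labelled WT, and 33.6 and 44.6 CPM in CD HO, against 35.3 and 32.6 CPM in CD WT. Kdm2a had 158 and 158 CPM in null HO, against 139 and 149 CPM in those labelled WT, and 146 and 156 CPM in CD HO, against 148 and 136 CPM in CD WT. Both genes were on the higher side, inside their spread in the CD line. Kdm4c had 51.6 and 43.2 CPM in null HO, against 50.3 and 53.4 CPM in those labelled WT, and 43.1 and 47.4 CPM in CD HO, against 45.0 and 49.1 CPM in CD WT. Kdm4a had 63.9 and 58.4 CPM in null HO, against 64.0 and 65.1 CPM in those labelled WT, and 64.8 and 69.5 CPM in CD HO, against 66.8 and 77.3 CPM in CD WT. For Kdm4c and Kdm4a the fitted changes were negative in both lines.

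A direct test of the null effect in yolk sacs minus that in embryos called 0 of the 5 genes by edgeR, with 10.1% of all genes called and 1 of 5 at an unadjusted p under 0.05. All 5 differences were negative, where 49.4% of all genes had a positive difference. The largest was that of Kdm4c (-0.38, 95% interval -0.68 to -0.078, adjusted p = 0.106). Without yolk sac null HO replicate 1 it was -0.53 and passed (adjusted p = 0.0437), and without yolk sac null HO replicate 2 it was -0.25 (adjusted p = 0.325). Kdm4a, whose null HO libraries lay above WT in embryos and below the libraries labelled WT in yolk sacs, differed by -0.24 (-0.54 to 0.049, adjusted p = 0.306). For the CD line 0 of 5 passed, with 2.94% of all genes called, differences between -0.31 and 0.15, and 1 of 5 at an unadjusted p under 0.05.

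Kdm4c and Kdm2b differed more between the tissues than any of the 5 genes did between genotypes. Yolk sac and embryo libraries came in separate tables, so tissue and table cannot be told apart. Of the 5 genes, 4 differed between the 4 yolk sac libraries labelled WT and the 4 WT embryo libraries, 1 higher and 3 lower in yolk sac, where 71.7% of all genes were called, 34.2% as higher and 37.4% as lower. On the common scale of the joint fit, Kdm4c had 57.2, 59.7, 50.2 and 53.2 CPM in yolk sacs, against 22.3, 20.3, 21.001 and 21.6 CPM in embryos. Its lowest yolk sac library held more than any embryo library by a wide margin. Kdm4c was 2.58-fold higher in yolk sac (log2 fold change 1.37, SE 0.073, edgeR adjusted p = 2.92e-12). Kdm2b ran the other way, with 35.6, 39.1, 33.7 and 32.5 CPM in yolk sacs, against 74.4, 70.1, 81.5 and 98.5 CPM in embryos. The log2 fold change was -1.20 (SE 0.076, edgeR adjusted p = 4.23e-11).

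Kdm4b and Kdm4a were lower in yolk sac by smaller amounts. Kdm4b averaged 38.9 ± 2.71 CPM in yolk sacs labelled WT and 55.4 ± 9.37 CPM in WT embryos (SD, n = 4 each), a log2 fold change of -0.50 (SE 0.084, edgeR adjusted p = 2.87e-05). Kdm4a averaged 76.0 ± 5.28 CPM in yolk sacs and 93.8 ± 3.56 CPM in embryos, a change of -0.31 (SE 0.070, edgeR adjusted p = 0.000666). For both genes the highest yolk sac library lay below the lowest embryo library. Kdm2a averaged 159 ± 8.38 CPM in yolk sacs and 165 ± 15.3 CPM in embryos and did not pass (-0.047, SE 0.064, adjusted p = 0.529). Scaling by library totals alone lowers the median of all genes by 0.32 in this comparison, and on that scale Kdm2a passed as lower in yolk sac (-0.36, adjusted p = 4.78e-05), while the other 4 genes kept their direction and their call.

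**Figure D3:**
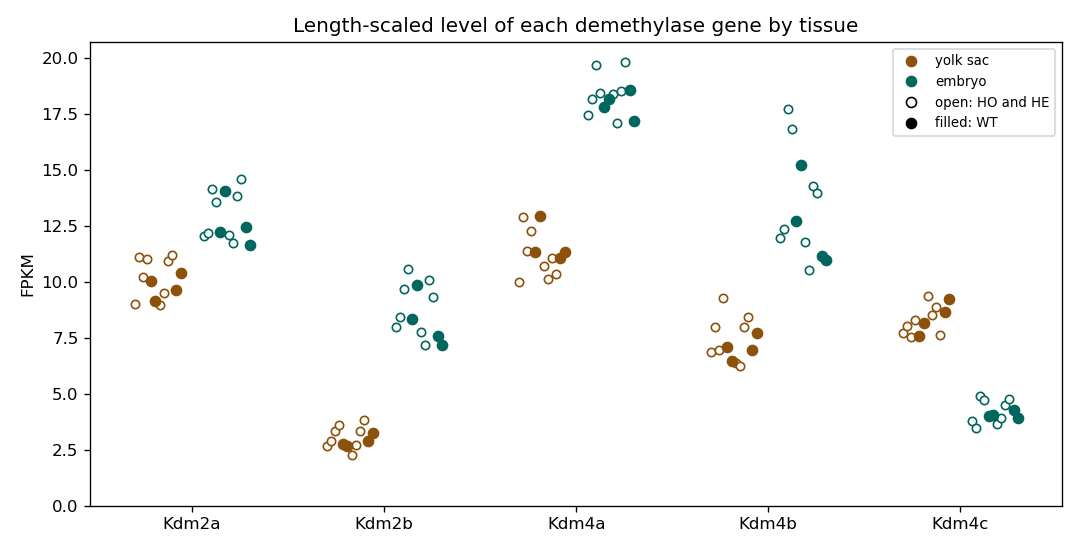
FPKM of each gene in each library, with yolk sac (brown) left of embryo (teal), filled points for libraries labelled WT and open points for HO and HE. FPKM is scaled to the library total. Kdm4c is higher in every yolk sac library than in any embryo library, Kdm2b the reverse, and Kdm4a has the highest median of the 5 in embryos.

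The opposite tissue levels of Kdm4c and Kdm2b were set against each other within each library, where the scale of the library drops out. The ratio of Kdm4c to Kdm2b FPKM was 1.99 to 4.17 (median 2.81) over the 12 yolk sac libraries and 0.408 to 0.561 (median 0.477) over the 12 embryo libraries. The ranges did not meet, and all 3 genotypes are within them.

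Kdm4d, the member best known from testis, was close to the limit of detection. It had 6 and 4 counts in null HO embryos, against 4 and 6 counts in null WT embryos, and 3 and 7 counts in CD HO embryos, against 3 and 3 counts in CD WT embryos. The 12 yolk sac libraries held 8 counts in all, from 0 to 3 each, with 7 of them at 0, the 4 labelled WT among these. A count of 0 allows a level of up to 0.136 to 0.183 CPM in a yolk sac library (3 counts of its total, covering counting error only). Over all 12 embryo libraries there were 47 counts, from 0 to 7 each. In its longest transcript 11% of 50-base words are shared, chiefly with the pseudogene Kdm4dl, which had 0 to 4 counts per library. No difference between genotypes was detectable at this depth. Kdm4d was too low for the tissue comparison as filtered, and with no filter edgeR called it lower in yolk sac, as did DESeq2.

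Other writers, readers and erasers of histone methylation were read from 5 lists, which were written with earlier results of these data known. Beside them stand the 32.7% of all genes called for HO over WT in null embryos, 16.1% in CD embryos, 6.27% in null yolk sacs and 3.15% in CD yolk sacs. In null HO embryos the 9 genes listed as H3K36 methyltransferases gave 0 higher and 3 lower, a share close to that of all genes. Not every gene on this list is established as a writer on H3K36, and its counts and medians include them all. Those lower were Setd2 itself (-1.23) and 2 writers of dimethylation, Nsd3 (-0.19, edgeR adjusted p = 0.0205) and Nsd2 (-0.18, adjusted p = 0.0145). In CD HO embryos 0 rose and 2 fell, again Nsd3 (-0.21, adjusted p = 0.0260) and Nsd2 (-0.16, adjusted p = 0.0448). The median of the list was -0.15 in null and -0.11 in CD embryos. The demethylases and this list, which includes the mutated gene Setd2, had medians of opposite sign in embryos of both lines. In yolk sacs both medians were positive in both lines. There the list had 0.087 in null and 0.036 in CD, and the demethylases had 0.13 and 0.089. In yolk sacs only Setd2 (-0.49) fell past the test in null HO, and none in CD HO.

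Of 15 genes listed as readers of H3K36 methylation, 2 rose and 3 fell in null HO embryos. In CD HO embryos 0 rose and 2 fell, and these shares were close to the 32.7% and 16.1% of all genes. The counts and medians of the list include genes that are not known as such readers, Mecom among them. Hdgfl2, a PWWP-domain reader, fell in both lines (-0.40, adjusted p = 0.000150 in null, and -0.49, adjusted p = 0.000104 in CD). Dnmt3b, a DNA methyltransferase with a PWWP domain, rose by 1.02 in null embryos. Mecom, which fell by 1.23 on the log2 scale there, is on the list but is known as a zinc finger transcription factor with a PR domain linked to H3K9 methylation, not as a reader of H3K36. In yolk sacs Mecom fell (-2.23 in null, -1.76 in CD) and Msh6, a mismatch repair protein, rose (0.43 in null, 0.41 in CD), as the only members called in either line. The medians of this list were -0.027 in null and -0.058 in CD embryos, and 0.25 and 0.16 in null and CD yolk sacs.

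Of 17 other lysine demethylases, 4 rose and 2 fell in null HO embryos and 1 rose and 1 fell in CD HO embryos, again close to the 32.7% and 16.1% of all genes. Kdm1b, an H3K4 demethylase, fell in both lines (-0.58, adjusted p = 0.000936 in null, and -0.40, adjusted p = 0.0174 in CD). Kdm5b, also an H3K4 demethylase, rose by 0.56 (adjusted p = 0.00148) and Kdm1a by 0.31 (adjusted p = 0.000697) in null embryos, and Kdm3a, an H3K9 demethylase, rose by 0.29 (adjusted p = 0.0249) in CD embryos. The list's median was 0.060 in null and 0.051 in CD embryos, below the 0.27 and 0.14 of the tested Kdm2 and Kdm4 genes. The list includes Kdm8 and Riox1, also reported to act on H3K36, so it does not set H3K36 demethylases against all others. Kdm8 averaged 13.5 CPM in null HO embryos against 15.3 in WT, and 14.5 in CD HO against 16.6 in WT, with overlapping libraries. Riox1 averaged 24.5 CPM in null HO embryos against 23.5 in WT, and 27.9 in CD HO against 24.3 in WT. In yolk sacs 16 genes of the list were tested and none was called by edgeR in either line.

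The partners of Kdm2b in PRC1.1, 9 genes tested, were split in null HO embryos, with 4 higher and 3 lower, where 32.7% of all genes were called. Rybp rose by 0.74 (adjusted p = 0.000281) and the corepressor Bcor by 0.34 (adjusted p = 0.00212), and Yaf2, the paralogue of Rybp, fell by 0.38 on the log2 scale (adjusted p = 0.00127). In CD HO embryos 0 rose and 1 fell, the ubiquitin ligase Rnf2 (-0.18, adjusted p = 0.0200), where 16.1% of all genes were called. In yolk sacs Ring1 fell in null HO (-0.87, adjusted p = 0.0401) and none passed in CD HO. The median of the list was 0.057 in null and 0.027 in CD embryos. Of 6 H3K9 methyltransferases, whose mark the Kdm4 enzymes also remove, 0 rose and 1 fell in null HO embryos (32.7% of all genes called), Ehmt2 (-0.22, adjusted p = 0.0265). In CD HO embryos (16.1% of all genes called) 0 rose and 2 fell, Suv39h2 (-0.29, adjusted p = 0.0114) and Setdb2 (-0.38, adjusted p = 0.0322), and in yolk sacs none was called in either line. The medians of this list were -0.087 in null and -0.10 in CD embryos.

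**Figure D4:**
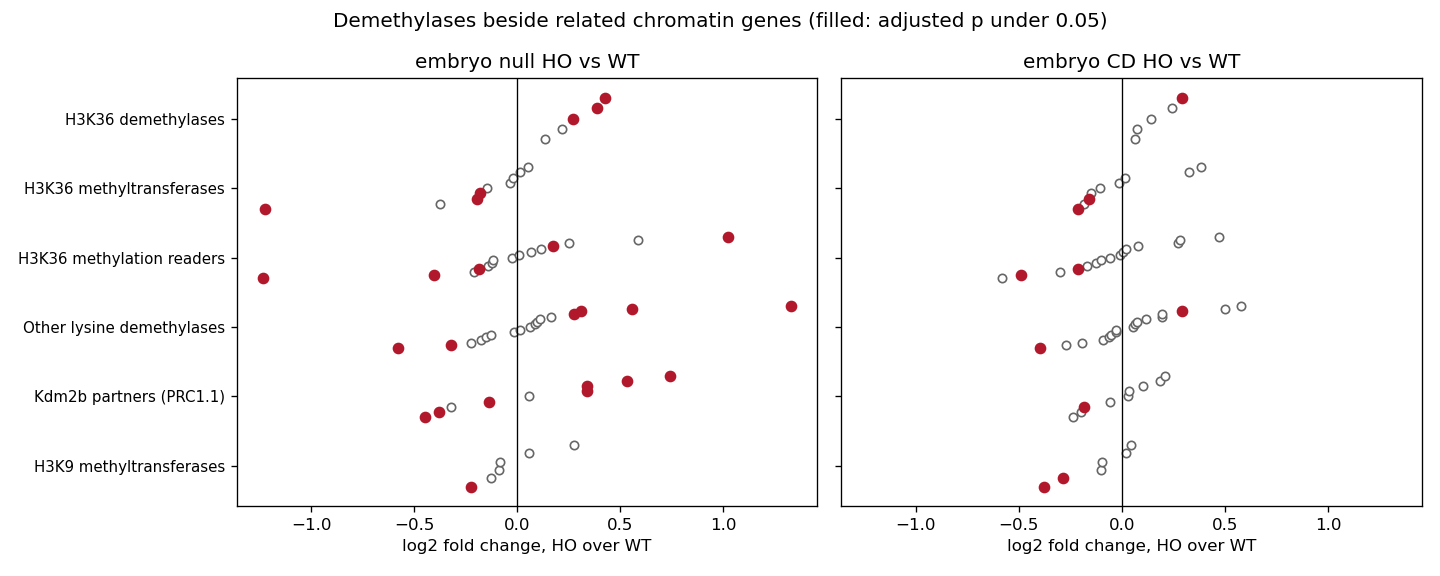
Fitted log2 fold change of HO over WT embryos for the 5 tested Kdm2 and Kdm4 genes and for the members of the 5 lists. The null line is on the left and the CD line on the right. Each point is a gene and filled points passed an adjusted p of 0.05. All 5 tested Kdm2 and Kdm4 genes lie above 0 in both lines. So do 51.6% of all genes tested in the null line and 50.3% in the CD line. Kdm2a, Kdm2b and Kdm4b followed one another across libraries, so the 5 signs are not independent. Every called gene of the H3K36 methyltransferase list lies below 0.

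Within a tissue, Kdm2a, Kdm2b and Kdm4b followed one another across libraries, while Kdm4a and Kdm4c stood apart. Likeness was measured as the Pearson correlation of log2 CPM over the 24 libraries after the mean of each tissue was subtracted, and it is given as a description, since the libraries share genotypes and scaling. Between Kdm2a, Kdm2b and Kdm4b it was 0.84 to 0.86, and between Kdm4a or Kdm4c and any other member 0.25 to 0.50. Among the 16456 genes tested in both tissues, those most like Kdm2a were Kdm5b (0.893) and Tnks (0.889). For Kdm2b they were Galnt10 (0.910) and Wipf2 (0.906), and for Kdm4b Mdc1 (0.878) and Alkbh5 (0.877). For Kdm4c they were Adm2 (0.879) and Samd9l (0.848), and Kdm4a had the least close neighbours, Twnk (0.784) and Usp15 (0.773).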

How the data were processed

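Whole embryos and yolk sacs were profiled by mRNA sequencing in 24 libraries (TRIzol RNA, KAPA mRNA libraries, NovaSeq reads, per the labels' protocols). Per the submitters' processing notes, fastp 0.22.0, HISAT2 2.2.1, featureCounts 2.0.1, DESeq2 1.32.0 and the build mm10 were used. Strand, multi-mapping reads and the annotation release: not given in the sources used here. The authors deposited 2 tables, 1 per tissue, with raw read counts and FPKM values per gene. The deposited FPKM values equalled count over length and library total to within a relative difference of 9.68e-07, so tests used the counts and FPKM served to compare levels between genes. The authors also deposited a gene length in each table. Gene identifiers were used to restore 27 symbols per table written as dates.

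The 12 libraries of a tissue were fitted together, by group, with edgeR 4.0.16 under R 4.3.3: TMM scaling, quasi-likelihood F-test, Benjamini-Hochberg adjustment over all genes tested, threshold 0.05. The filterByExpr filter (minimum count 10, minimum total 15) kept 19215 embryo genes and 17755 yolk sac genes. Tissue comparisons used 1 joint fit of 24 libraries and 20543 genes. Kdm4d failed the filter in each fit. Alternatives were library totals alone, no filter, DESeq2 1.42.0, a replicate block, a sex term, only the groups compared, HE in place of WT, each library left out and, added after seeing the data, both lines averaged and libraries left out of HO over HE. Replicates differed by more than sampling noise in every group (chi-square per degree of freedom 2.95 to 32.3). The edgeR step was tested on simulated counts.

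Named genes were the 6 members, Setd2, up to 3 called genes of smallest p per list and HO comparison, and the 2 genes most like each tested member, passing over predicted genes, Riken clones and pseudogenes. Rnf34, Kdm4dl and the antisense genes were named for their overlap or shared sequence. The members and lists were chosen with earlier results of these data known.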

Additional observations from a re-analysis of the deposited data

How the results depend on the processing

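The number of members called in each comparison was the same as in the report under every alternative run, apart from the following. In null embryos the 3 genes called for HO over WT became 4 with HE in place of WT or with both lines averaged, and 2 to 3 with a library left out. The 4 genes called between tissues became 5 with library totals alone, which added Kdm2a, and 5 with no filter or with DESeq2, which added Kdm4d as lower in yolk sac. In CD embryos the count for HO over WT (1 gene) was 0 with the replicate block, 0 with a sex term, 0 with only the 2 groups fitted, 3 with HE in place of WT and 4 with both lines averaged, and leaving out single libraries gave 0 to 2. Kdm4b was at 0.29 with the block (adjusted p = 0.0515). The count for CD WT over null WT embryos (0 genes) was 2 with no filter and 2 with DESeq2, and 0 to 3 with a library left out. In null yolk sacs HE in place of the libraries labelled WT gave 1 in place of 0. Against HE, leaving out libraries, an alternative added after seeing the data, gave 0 to 4 in null embryos, 1 to 3 in CD embryos, 0 in null yolk sacs (1 with all libraries) and 0 in CD yolk sacs. Leaving out libraries gave 0 to 2 for CD HE over WT embryos, 0 to 2 for the CD minus the null effect in embryos, and 0 to 1 for the null effect in yolk sac minus embryo.

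Some small changes turned direction, and the cause was not tested. For Kdm4c, the CD minus null effect was -0.13 with a sex term and -0.045 to 0.098 with libraries left out. CD WT over null WT was -0.020 with library totals and -0.060 to 0.083 with libraries left out, where Kdm4a gave -0.020 to 0.10. In CD yolk sacs Kdm4c was 0.0069 with library totals and -0.12 to 0.012 with libraries left out. Kdm4a against HE was 0.0046 in null and 0.015 in CD yolk sacs. With libraries left out, Kdm2a in CD embryos ranged from -0.051 to 0.18, Kdm4b in the CD minus null effect from -0.24 to 0.063, Kdm4b in CD yolk sacs from -0.016 to 0.39, and Kdm2a in yolk sac over embryo WT from -0.10 to 0.014. Against HE they ranged in null yolk sacs from -0.062 to 0.067 for Kdm4a, and in CD yolk sacs from -0.10 to 0.22 for Kdm2a, -0.17 to 0.22 for Kdm4a, -0.12 to 0.29 for Kdm4b and -0.090 to 0.047 for Kdm4c.

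The replicate numbers showed no clear pairing of libraries: differences between replicates 1 and 2 correlated at -0.10 to 0.071 between embryo groups and -0.11 to 0.15 between yolk sac groups. Whether libraries shared a litter cannot be read from these correlations, and the labels do not say. With 2 libraries per group, 6 residual degrees of freedom per tissue limit the precision of every change, and Kdm4d could not be compared between genotypes at this depth.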
